A study of Mus musculus with 12 samples.

Results

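The question taken up here is whether 6 weeks of treadmill running shifted cardiac transcripts differently in female and male mice. The measure is the interaction: the exercised-minus-sedentary log2 difference in females less the same difference in males, so a value above 0 means that the exercise effect lay higher in females. It was computed for every gene from all 12 libraries, 3 in each of 4 groups, and only autosomal genes are reported. Of the 55401 genes counted, 50957 are autosomal, and 15705 of these had enough counts to be tested. All animals were wild-type C57BL/6J, an inbred laboratory strain, and all samples were bulk heart tissue. The 4 groups were females that ran on a treadmill (1 km/h, 45 min daily, 5 days weekly), females kept in their cages as age-matched sedentary controls, and males treated in these same 2 ways. The sources used here give no age in weeks, library kit, strandedness or batch. A library was treated as 1 animal although the labels leave this unsaid, so the p-values measure the spread between these libraries.

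The adult heart takes most of its energy from fatty acids. These are bound in the cytosol by FABP3, carried into mitochondria by the carnitine shuttle and shortened by beta-oxidation, whose electrons reach the respiratory chain through ETFDH. Many of these enzymes are under the control of the nuclear receptor PPARα and related receptors with the coactivator PGC-1α, and endurance training is known for its effects on this pathway in muscle. Contraction depends in turn on calcium stored in and released from the sarcoplasmic reticulum.

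Libraries held 22204349 to 32566240 counts, or at most 26607844 without the mitochondrial genes, which were left out. Summed over 8 genes, markers of ventricular cardiomyocytes came to 62374 to 71717 CPM (counts scaled to a common library size) in every library. The summed level of 6 atrial markers ran from 36.7 to 350 CPM in exercised females and from 37.3 to 236 CPM in sedentary females, against 33.2 to 38.0 and 25.1 to 37.2 CPM in exercised and sedentary males. It was highest in female exercised 2, female sedentary 1 and female sedentary 2. Erythroid markers came to 3662 and 1767 CPM in these 2 sedentary libraries, to 310 CPM in female exercised 2 and to at most 105 CPM elsewhere. Lymphocyte and neutrophil markers came to at most 3.16 CPM, and the platelet gene Gp1bb and the nerve gene Th were at 0 in all libraries. In bulk tissue, fewer cells of a type and less RNA per cell cannot be told apart.

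No autosomal gene passed edgeR's test for a difference between the sexes in its exercise effect. By the quasi-likelihood test of edgeR, with p-values adjusted after Benjamini and Hochberg over all genes fitted, 0 of 15705 genes passed at 0.05 (0%), and the smallest adjusted p was 0.885. At an unadjusted p under 0.05 stood 742 genes (4.72%), of which 362 (2.3%) lay above 0 and 380 (2.42%) below. Limma's voom called 0 genes, while DESeq2, which adjusted over 3862 genes only, called 9. The 9 were Vwa8, Fyco1, Etfdh, Srl, Mut, Acta2 and C130080G10Rik above 0 and Eif4ebp1 and Cpxm2 below 0. C130080G10Rik and Cpxm2 are named because DESeq2 called them.

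The precision of the contrast set what could be seen. The median standard error (SE) of the interaction was 0.2 on the log2 scale, against 0.14 for exercise in either sex alone. From the 5th to the 95th percentile, the interaction ran from -0.59 to 0.57, with a median of -0.005. Only 138 genes of at least 1 CPM had an interaction larger than 1 in size. Across the 15705 genes the exercise effects of the sexes had a Pearson r of 0.1 and a Spearman rho of 0.07; these are descriptions, since genes of 1 library share its depth and composition and are not replicates.

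Few genes separated the groups completely in both sexes, and about as many did so in opposite directions as in the same one. Exercised and sedentary libraries were wholly apart in both sexes, on opposite sides, in 96 genes (0.611%). Of these, 58 were higher in exercised females and lower in exercised males, and 38 the reverse. In 93 genes (0.592%) the exercised libraries lay on the same side in both sexes, 64 higher and 29 lower. Of the 742 genes at an unadjusted p under 0.05, 702 had exercise effects of opposite sign and 40 of the same sign, as a difference of effects is largest where they oppose.

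**Figure D1:**
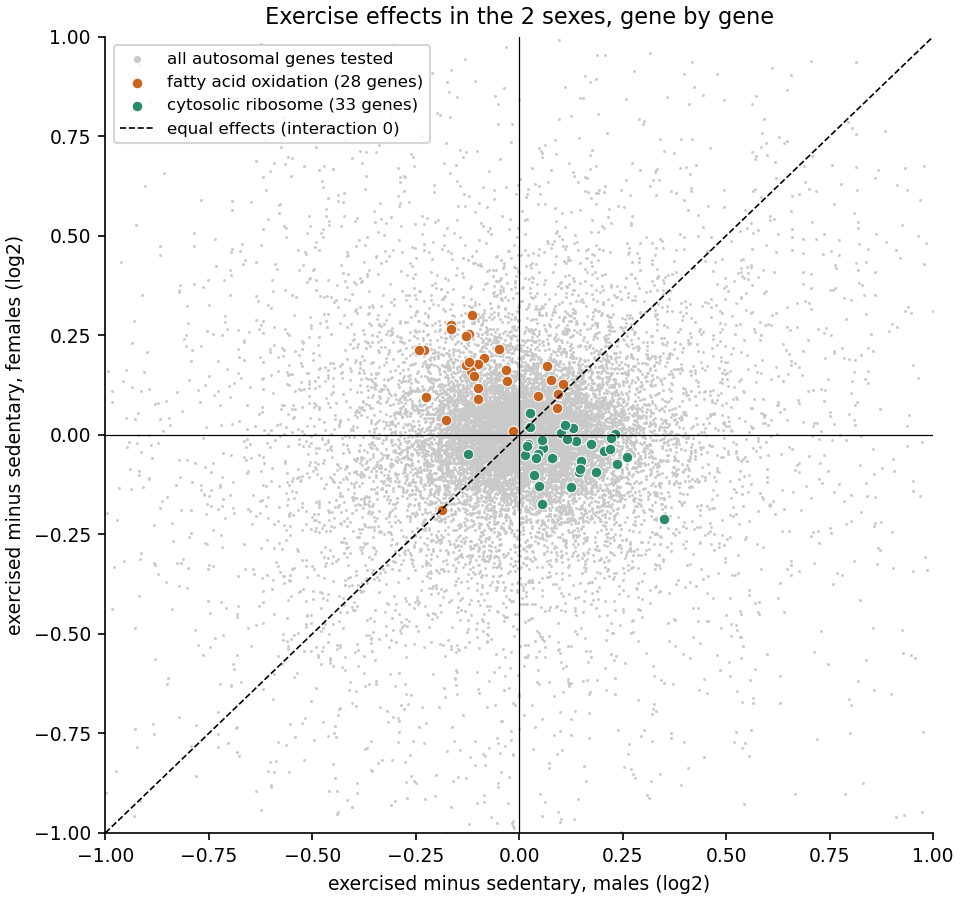
Exercise effect in females (vertical axis, log2) against that in males (horizontal axis, log2) for autosomal genes with both effects within 1 of 0. Grey points are all such genes, orange points 28 fatty acid oxidation genes and green points 33 cytosolic ribosomal protein genes; the dashed line marks equal effects. The orange points lie mostly above 0 in females and below 0 in males (21 of 28), and the green ones mostly the other way round (26 of 33).

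The protein-coding gene of smallest p was Vwa8, which encodes an AAA ATPase of mitochondria and lies on chromosome 14 (GRCm38, 78849052 to 79202310, plus strand). It stood at 266, 257 and 274 CPM in the exercised females and at 237, 217 and 200 CPM in the sedentary females. In males the values were 307, 268 and 282 CPM with exercise and 342, 329 and 363 CPM without. Exercised libraries thus lay above sedentary ones in females and below them in males, with no overlap in either sex. The interaction was 0.55 ± 0.11 (SE; 95% interval 0.33 to 0.78, not adjusted for the number of genes), made up of 0.28 ± 0.08 in females and -0.27 ± 0.08 in males. EdgeR gave an unadjusted p of 0.000126 and an adjusted p of 0.885, DESeq2 an adjusted p of 0.00384. Seen from the other side, the female-minus-male difference was -0.66 ± 0.08 in sedentary hearts and -0.10 ± 0.08 in exercised ones.

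Named here are the 12 genes of smallest p in each direction among the 11907 protein-coding genes of at least 1 CPM. Above 0, group means of Fyco1, Srl, Mut, Acat1 and Fsd2 had the same layout as in Vwa8, with sedentary males highest, sedentary females lowest and the exercised groups between. Fyco1, an adaptor that moves autophagosomes along microtubules, was at 278 to 299 CPM in exercised and 236 to 276 CPM in sedentary females, and at 301 to 313 CPM in exercised and 351 to 386 CPM in sedentary males (interaction 0.46 ± 0.10). Srl, sarcalumenin, a calcium-binding protein of the sarcoplasmic reticulum, was at 864 to 907 against 765 to 836 CPM in females and at 898 to 920 against 996 to 1116 CPM in males (0.34 ± 0.09). The 2 groups of each sex did not overlap for either gene. Mut, the methylmalonyl-CoA mutase of propionate breakdown, was at 136 to 138 against 125 to 128 CPM in females and at 129 to 142 against 154 to 160 CPM in males (0.33 ± 0.08). Acat1, the mitochondrial thiolase of ketone body use, was at 706 to 721 against 616 to 660 CPM and at 703 to 793 against 825 to 879 CPM (0.32 ± 0.09). Neither of these overlapped in either sex.

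Of the 12 genes of smallest p above 0, the remaining 7 were Etfdh, described below, and Rwdd4a (0.39 ± 0.09), Pkdrej (0.72 ± 0.18), A530016L24Rik (0.61 ± 0.15), Rnaset2b (1.08 ± 0.28), Fsd2 (0.33 ± 0.09) and Muc6 (0.84 ± 0.22). Fsd2 encodes a protein of cardiac muscle with fibronectin and SPRY domains. Rnaset2b stood at only 2.04 to 3.43 CPM as group means and has a near-identical copy, so its value is uncertain. A530016L24Rik and Muc6 overlapped between exercised and sedentary females.

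Below 0, the largest difference among the 12 genes of smallest p was that of Eif4ebp1, the 4E-BP1 repressor of cap-dependent translation that mTOR inactivates. It was at 37.9, 39.4 and 65.9 CPM in exercised and 73.5, 67.1 and 80.0 CPM in sedentary females. In males it was at 76.6, 87.5 and 73.9 CPM with exercise and 64.3, 64.6 and 57.7 CPM without. Exercised libraries lay below sedentary ones in females and above them in males. Female exercised 3 stood far from the other 2 of its group and close to the sedentary level. The interaction was -0.97 ± 0.25 (95% interval -1.53 to -0.42; females -0.62 ± 0.18, males 0.35 ± 0.18). It did not pass edgeR's quasi-likelihood test (adjusted p = 0.931), but without female exercised 3 it was -1.28 with an adjusted p of 0.0029, the only gene called with any 1 library left out.

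The other 11 genes below 0 had interactions between -0.72 and -0.34. Bola1, an iron-sulfur assembly factor of mitochondria, was at 14.5 to 15.8 CPM in exercised and 17.5 to 18.3 CPM in sedentary females, and at 13.1 to 16.6 against 10.6 to 12.4 CPM in males (-0.62 ± 0.15). Its cytosolic relative Bola2 was at 13.5 to 14.3 against 14.8 to 17.0 CPM in females and at 13.6 to 16.6 against 8.67 to 12.3 CPM in males (-0.63 ± 0.18). For both genes the groups of either sex did not overlap. Mrps24, of the small subunit of the mitochondrial ribosome, was at -0.59 ± 0.15, with male sedentary 3 at 37.8 CPM and the other libraries between 54.6 and 74.3 CPM. The mitochondrial ribosome list as a whole had 17 of 33 genes above 0 (median 0.00). Pgs1, the first enzyme of cardiolipin synthesis, was at -0.46 ± 0.13 and Cars2, the mitochondrial cysteine-tRNA ligase, at -0.34 ± 0.10. The 12 were completed by Zfp622 (-0.41 ± 0.10), Sox12 (-0.72 ± 0.19), Mtmr14, a phosphoinositide phosphatase (-0.45 ± 0.12), Card10 (-0.43 ± 0.12), Tmem71 (-0.52 ± 0.15) and Adora2a, an adenosine receptor (-0.62 ± 0.18). In Zfp622, Sox12, Mtmr14 and Cars2 the female groups overlapped and the male groups did not (exercise effect in males 0.36, 0.52, 0.43 and 0.25).

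**Figure D2:**
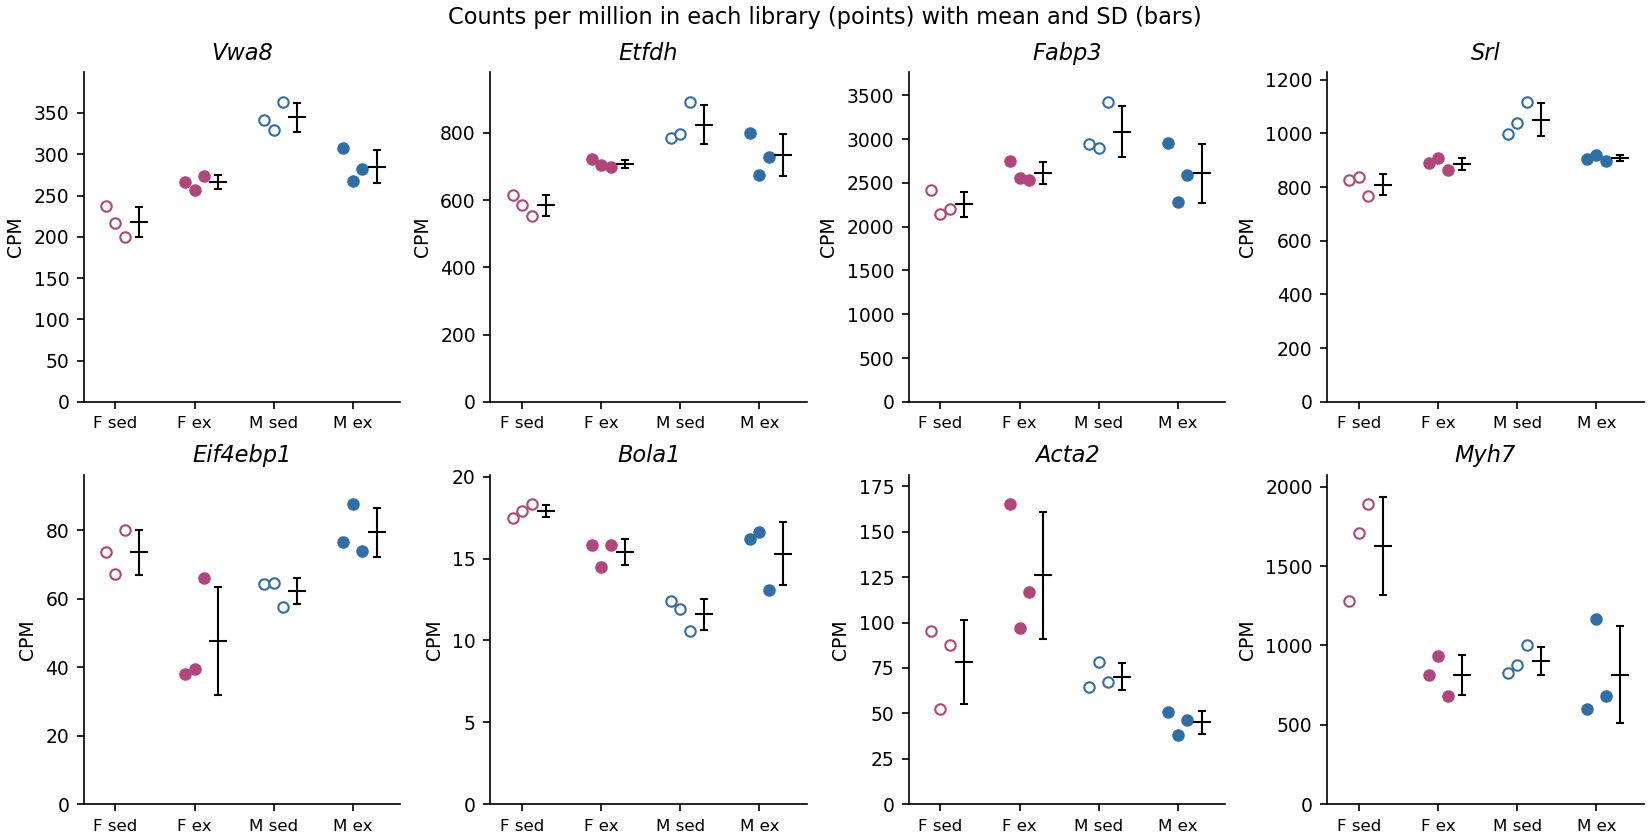
CPM (vertical axes, from 0) of 8 genes in the 12 libraries, by group: female sedentary, female exercised, male sedentary and male exercised. Each point is 1 library, and the bar beside it the mean and standard deviation of 3. Vwa8, Etfdh, Fabp3 and Srl are lowest in sedentary females and highest in sedentary males; Eif4ebp1 and Bola1 are lowest in exercised females and sedentary males, respectively.

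Of the 28 gene lists, that of fatty acid oxidation had the largest share of members at an unadjusted p under 0.05. All 28 members were tested and 0 passed. At an unadjusted p under 0.05 stood 17 of the 28 (60.7%), all above 0, where 2.3% of all genes stood there above 0. In all, 26 of 28 were above 0, against 49% of all genes, and the median interaction was 0.26 against -0.005 over all genes. In females 27 of 28 exercise effects were above 0 (median 0.16) and in males 22 of 28 were below 0 (median -0.10). The list was chosen with earlier results of these data known, so these counts are a description and no test.

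Taken library by library, the list was lowest in sedentary females. The median over its members, as log2 CPM less each gene's mean over the 12 libraries, was -0.15, -0.20 and -0.24 in the sedentary and -0.01, -0.06 and -0.03 in the exercised females. In males it was 0.12, 0.14 and 0.22 without exercise and 0.18, -0.02 and 0.04 with it. The female groups did not overlap, while the male groups did, since male exercised 1 lay among the sedentary males. In 20 of the 28 genes every exercised female library lay above every sedentary one, a layout shown by 5.16% of all genes. The layout was not particular to this list, since 13 of 18 citric acid cycle genes had it too. In 1 of the 28, Acadm, every exercised male library lay below every sedentary one, against 6.22% of all genes. In 3 of the 28, Acads, Eci1 and Acaa1a, every exercised male library lay above every sedentary one, as did the exercised females (963 of all 15705 genes had this layout in males). Median differences between females and males were -0.34 in sedentary and -0.09 in exercised hearts. The sex difference was smaller in exercised hearts for 25 of the 28 genes (89.3%), against 58.9% of all genes. Other lists had like shares, such as the cytosolic ribosome (93.9%), interferon-stimulated genes (86.7%), immediate early genes (86.2%) and the citric acid cycle (83.3%). The lowest share was that of glucocorticoid-responsive genes (19%). The interaction and the sedentary sex difference share the sedentary libraries. Without the 3 libraries of high atrial markers the median interaction was 0.305 over 9 libraries. Female sedentary 3, the library with the lowest list median (-0.24), was then the only sedentary female. With the atrial markers as a covariate the median interaction was 0.26. Leaving out any 1 library it ran from 0.21 to 0.29.

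By step of the pathway, the smallest p was in electron transfer. Etfdh, the flavoprotein dehydrogenase that hands electrons from acyl-CoA dehydrogenases to ubiquinone, was at 721, 704 and 697 CPM in exercised and 614, 584 and 552 CPM in sedentary females. It was at 800, 675 and 729 CPM in exercised and 785, 796 and 891 CPM in sedentary males. The female groups were apart and the male groups overlapped through male exercised 1. The interaction was 0.44 ± 0.10 (95% interval 0.22 to 0.67; females 0.28 ± 0.07, males -0.17 ± 0.07), with an adjusted p of 0.931 by edgeR's quasi-likelihood test and 0.0491 by DESeq2. Its partners Etfa and Etfb, the subunits of the electron transfer flavoprotein, were at 0.16 ± 0.08 and 0.27 ± 0.15. The acyl-CoA dehydrogenases, each for a different chain length, followed: Acadvl for very long chains at 0.31 ± 0.11, Acadm for medium chains at 0.22 ± 0.08, Acadl for long chains at 0.19 ± 0.08 and Acads for short chains at 0.06 ± 0.08. The last was above 0 in both sexes (0.14 and 0.08).

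Uptake and transport genes split. Fabp3 was at 2754, 2556 and 2528 CPM in exercised and 2413, 2144 and 2201 CPM in sedentary females. In males it was at 2954, 2281 and 2595 CPM with exercise and 2940, 2895 and 3420 CPM without, and these overlapped. Its interaction was 0.46 ± 0.13 (95% interval 0.18 to 0.73), the largest of the list. Slc25a20, the carnitine carrier of the inner membrane, was at 0.43 ± 0.13, and Cpt2, which returns acyl groups to coenzyme A in the matrix, at 0.41 ± 0.13. Crat, carnitine acetyltransferase, was at 0.28 ± 0.09 and Acsl1, which activates long-chain fatty acids, at 0.26 ± 0.10. Cpt1a, the liver form of the enzyme that commits fatty acids to the shuttle, stood at 0.03 ± 0.23. Its muscle form Cpt1b was at 0.00 ± 0.17 from only 9.43 to 12.9 CPM as group means. However, 81.4% of the exonic bases of Cpt1b are shared with a readthrough gene on the same strand, so its count does not measure that enzyme well.

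The enzymes of the beta-oxidation spiral were above 0 with some exceptions. Acaa2, the last thiolase, was at 0.38 ± 0.13, Hadha and Hadhb, the subunits of the trifunctional protein, at 0.32 ± 0.12 and 0.28 ± 0.09, and Hadh at 0.28 ± 0.09. Genes that prepare unsaturated fatty acids were also above 0: Decr1, the dienoyl-CoA reductase, at 0.44 ± 0.13, Ech1 at 0.37 ± 0.12, Eci2 at 0.31 ± 0.12 and Eci1 at 0.11 ± 0.08. Echs1, the short-chain hydratase, was at 0.05 ± 0.08. Acacb and Mlycd, which make and remove the malonyl-CoA that inhibits the shuttle, were at 0.01 ± 0.17 and -0.02 ± 0.18. Peroxisomal steps gave 0.19 ± 0.10 for Hsd17b4 and 0.02 ± 0.08 for Acaa1a. Exons of Etfb, Acadvl and Fabp3 overlap other genes over 58.2%, 42.9% and 19.6% of their bases, which adds uncertainty because the strand setting of the counting is not given here.

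**Figure D3:**
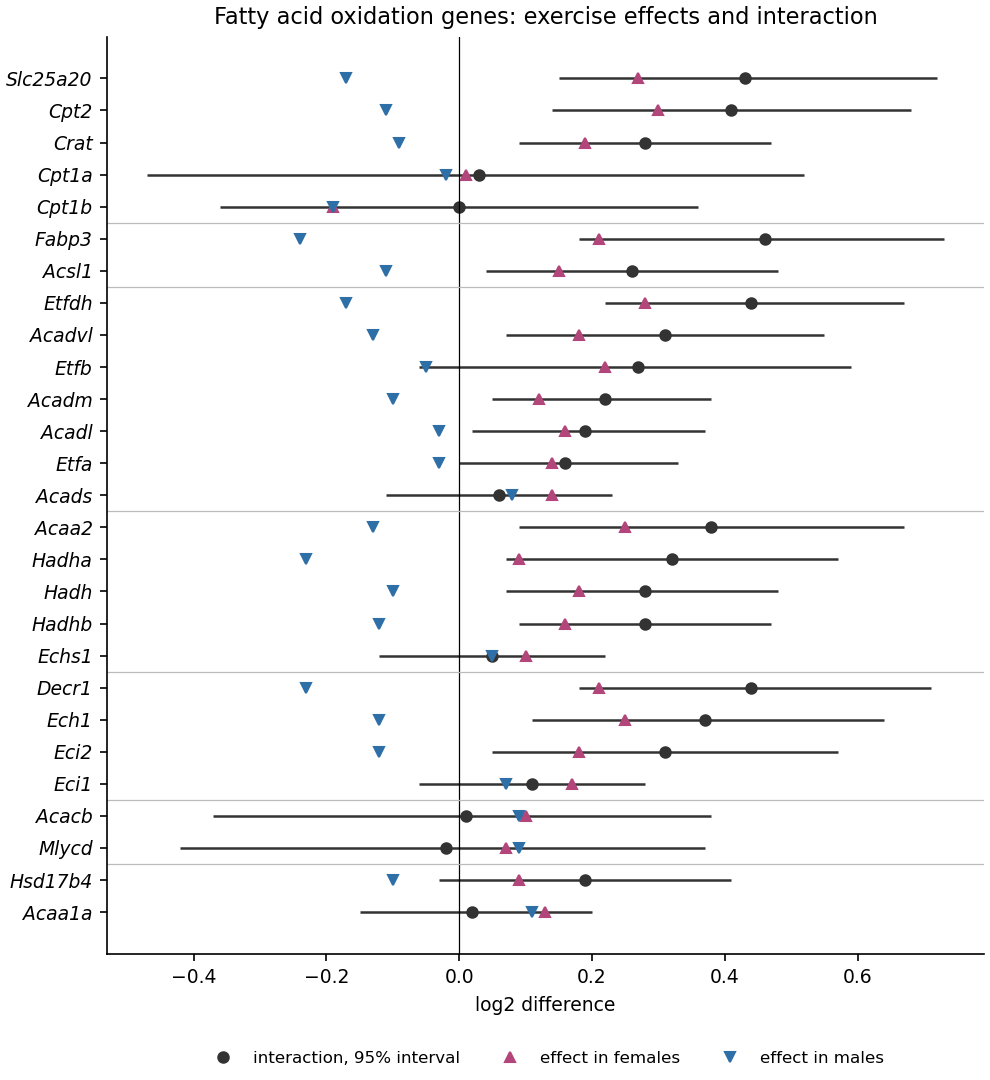
Interaction (black points) with its 95% interval (bars, not adjusted for the number of genes), and the exercise effects in females (upward triangles) and males (downward triangles), all as log2 differences, for 27 of the 28 fatty acid oxidation genes. Grey lines part the steps of the pathway, from the carnitine shuttle at the top to the peroxisome at the bottom. Upward triangles lie right of 0 for 26 genes and downward ones left of 0 for 21.

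The promoters of Vwa8 and of 3 oxidation genes are shown because these genes lay on the same side of the contrast, and because receptors of the ERR and PPAR families, which control many genes of fatty acid oxidation, bind sites built on AAGGTCA or close forms of it. Shown are the 250 bases before the RefSeq start (GRCm38.p6), 5′ to 3′ on the strand of the gene: Vwa8 at chr14:78848928-78849177 (plus strand), Etfdh at chr3:79628768-79629017 (minus strand), Fabp3 at chr4:130308488-130308737 (plus strand) and Acadm at chr3:153944644-153944893 (minus strand). Capitals mark AAGGTCA on either strand.
Vwa8: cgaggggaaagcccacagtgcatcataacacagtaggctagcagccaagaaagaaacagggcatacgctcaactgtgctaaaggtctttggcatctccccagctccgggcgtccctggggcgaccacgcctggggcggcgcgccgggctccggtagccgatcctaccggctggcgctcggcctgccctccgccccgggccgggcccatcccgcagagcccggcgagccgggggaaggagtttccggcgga
Etfdh: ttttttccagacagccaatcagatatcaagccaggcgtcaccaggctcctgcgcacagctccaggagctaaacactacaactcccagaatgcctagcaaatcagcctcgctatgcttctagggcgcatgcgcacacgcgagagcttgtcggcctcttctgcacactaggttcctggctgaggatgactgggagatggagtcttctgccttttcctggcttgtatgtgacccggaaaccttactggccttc
Fabp3: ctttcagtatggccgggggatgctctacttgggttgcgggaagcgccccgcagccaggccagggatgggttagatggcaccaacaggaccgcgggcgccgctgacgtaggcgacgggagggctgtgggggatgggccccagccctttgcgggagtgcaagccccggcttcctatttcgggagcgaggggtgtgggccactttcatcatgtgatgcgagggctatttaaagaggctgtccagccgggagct
Acadm: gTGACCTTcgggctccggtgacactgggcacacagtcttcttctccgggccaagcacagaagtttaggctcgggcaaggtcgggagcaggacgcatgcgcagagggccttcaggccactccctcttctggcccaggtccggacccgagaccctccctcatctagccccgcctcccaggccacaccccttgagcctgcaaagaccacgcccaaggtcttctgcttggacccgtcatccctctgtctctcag
Among these 4 promoters the letters occur once, on the reverse strand at base 2 of the Acadm window, in the gene of medium-chain acyl-CoA dehydrogenase. In windows from 250 bases before to 50 after the start, they occur in 2 of the 22 list members found in the table, Acadm and Acacb, and in 1550 of all 32851 windows (4.72%). A match is a description and not a binding site, and its absence says only that these letters are not in the window. The 4 genes were picked by name, and Acadm is among the 2 members with a match. The count among the 4 is therefore no measure of the list.

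Fuel genes next to fatty acid oxidation lay closer to 0. In the citric acid cycle 15 of 18 genes were above 0 (median 0.10), and 3 stood at an unadjusted p under 0.05, against 2.3% of all genes above 0. Dlst was at 618, 623 and 612 CPM in exercised and 558, 580 and 562 CPM in sedentary females and at 661 to 682 against 697 to 710 CPM in males, without overlap in either sex. The 3 were Dlst (0.19 ± 0.07), of the 2-oxoglutarate dehydrogenase complex, Cs, citrate synthase (0.17 ± 0.07), and Sdhc, of succinate dehydrogenase (0.22 ± 0.10). Cs was at 1255, 1232 and 1234 CPM in exercised and 1145, 1121 and 1153 CPM in sedentary females, which did not overlap, and at 1321 to 1427 and 1401 to 1457 CPM in exercised and sedentary males, which did. Branched-chain amino acid breakdown had 15 of 18 genes above 0 (0.08), with 2 at an unadjusted p under 0.05 (11.1%). It was led by Mut and by Dbt, the core of the branched-chain dehydrogenase (0.32 ± 0.09). In glucose transport and glycolysis 10 of 18 were above 0 (0.03), with 0 at an unadjusted p under 0.05.

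Oxidative phosphorylation stood apart from fatty acid oxidation. Of its 66 nuclear genes 26 lay above 0, with a median of -0.03, and 3 were at an unadjusted p under 0.05 (4.55%, near the 4.72% of all genes). Its exercise effects were above 0 in 61 of 66 cases in females (0.07) and in 54 of 66 in males (0.12). Cycs, cytochrome c, was at 0.31 ± 0.10 and Ndufs1, of complex I, at 0.21 ± 0.08. Cox4i1, of complex IV, was at -0.26 ± 0.11, with females at 1656 to 1743 CPM exercised and 1599 to 1754 CPM sedentary and males at 1712 to 1903 against 1304 to 1581 CPM. Only the males separated for it.

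Of 12 transcriptional regulators of exercise growth and metabolism 5 lay above 0 and 7 below (median -0.07), and 2, Ppara and Ppargc1a, stood at an unadjusted p under 0.05 (16.7%, against 4.72% of all genes). Ppara, the nuclear receptor PPARα, was at 20.1, 24.4 and 22.1 CPM in exercised and 31.7, 30.3 and 32.2 CPM in sedentary males, without overlap. In females it was at 29.8, 27.6 and 23.4 CPM with exercise and 24.5, 27.9 and 18.4 CPM without, with overlap. The interaction was 0.69 ± 0.19 (95% interval 0.29 to 1.09). Ppargc1a, PGC-1α, was at 67.0 to 105 CPM in exercised and 121 to 158 CPM in sedentary males and at 80.3 to 96.1 and 72.9 to 106 CPM in females (0.61 ± 0.25). Of 21 PPAR-responsive genes 14 were above 0 (0.09), a median that depended on single libraries: it was -0.003 without female exercised 1, 0.268 without female sedentary 1, 0.267 without male exercised 1 and 0.431 in the 9 libraries of few atrial transcripts. Those 9 libraries hold female sedentary 3 as the only sedentary female. At an unadjusted p under 0.05 stood 5 of the 21 (23.8%, against 4.72% of all genes), 4 above 0 and 1 below. Among the 21, Plin4 and Plin5, coats of lipid droplets, were at 0.55 ± 0.21 and 0.47 ± 0.21. Cd36, the fatty acid transporter, was at 0.33 ± 0.14 and Dgat2, of triglyceride synthesis, at 0.23 ± 0.10. The 12 regulators belong to a list of 29 exercise growth signalling genes, of which 11 lay above 0 and 18 below (-0.08). At an unadjusted p under 0.05 stood 4 of the 29 (13.8%), 3 above 0 and 1 below. Of its 17 ligands, receptors and kinases 6 lay above 0 and 11 below (-0.10), from -1.24 to 0.55. Pik3r1, the regulatory subunit of PI3-kinase, was at 0.55 ± 0.23.

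Calcium handling genes lay above 0 in 25 of 30 cases, with a median of 0.13 and 6 at an unadjusted p under 0.05 (20%, all above 0, against 2.3% of all genes). Here the males carried more of the contrast: 25 of 30 male effects lay below 0 (-0.14), and 18 of 30 female effects above 0 (0.03). Hrc, a calcium-binding protein of the sarcoplasmic reticulum, was at 1211 to 1281 CPM in exercised and 1409 to 1649 CPM in sedentary males, without overlap, and at 1160 to 1261 and 1116 to 1236 CPM in females (0.32 ± 0.10). Casq2, the calcium buffer calsequestrin, was at 849 to 866 against 799 to 837 CPM in females and at 913 to 953 against 958 to 1092 CPM in males (0.23 ± 0.08). The groups did not overlap in either sex for Casq2. Cacna2d1, a subunit of the L-type calcium channel, was at 0.31 ± 0.11. Exons of this list are long (median 9558 bases), and over all genes the median interaction went from -0.05 in the shortest to 0.03 in the longest of 5 bins of exonic length; the part of length or RNA quality in this was not tested.

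The calcium release channel Ryr2, the pump Atp2a2 and its inhibitor Pln stood near 0. Ryr2 was at 1084 ± 100 and 1001 ± 117 CPM (SD, n = 3) in exercised and sedentary females and at 1271 ± 44.9 and 1308 ± 159 CPM in males, an interaction of 0.16 ± 0.14 (95% interval -0.14 to 0.46). Atp2a2 was at 0.07 ± 0.09 (-0.13 to 0.27) and Pln at 0.07 ± 0.13 (-0.21 to 0.35). All of these intervals include 0. With 3 libraries a group, differences of any size within them remain compatible with the data. Exons of Pln overlap genes of the other strand over 64.7% of their bases, so its value is uncertain.

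Electrical genes, of interest because the study's title concerns arrhythmia, had 14 of 26 members above 0 (0.02), and 3 stood at an unadjusted p under 0.05 (11.5%, against 4.72% of all genes), 2 above 0 and 1 below. Kcnj3, the GIRK1 channel of the vagal potassium current, was at 57.5, 63.9 and 59.3 CPM in exercised and 49.2, 53.5 and 48.7 CPM in sedentary females, without overlap, and at 57.9 to 74.6 and 71.8 to 72.8 CPM in males, with overlap (0.40 ± 0.12). An antisense gene covers 31.1% of its exonic bases. Kcnd2, a channel of the transient outward current, was at 0.73 ± 0.28 and Hcn2, a pacemaker channel, at -0.60 ± 0.25; both had overlapping groups in females. The connexins Gja1 and Gja5 were at 0.13 ± 0.17 (95% interval -0.24 to 0.49) and 0.16 ± 0.21 (-0.29 to 0.60). The potassium channel genes Kcnip2 and Kcnj2 were at -0.18 ± 0.16 (-0.51 to 0.16) and 0.03 ± 0.42 (-0.92 to 0.98).

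Genes of cardiac load lay below 0 in 12 of 15 tested cases, with a median of -0.17, and with Acta2 as the main exception. At an unadjusted p under 0.05 stood 3 of the 15 (20%, against 4.72% of all genes), 1 above 0 and 2 below. Myh7, the slow myosin heavy chain, was at 816, 935 and 684 CPM in exercised and 1282, 1708 and 1888 CPM in sedentary females, without overlap. In males it was at 601, 1165 and 684 CPM with exercise and 828, 876 and 1002 CPM without, with overlap. The interaction was -0.86 ± 0.35 (95% interval -1.64 to -0.07), and antisense genes that include Mhrt cover 13.3% of its exons. Nppa, the atrial natriuretic peptide, was at 54.5 to 90.2 CPM in exercised and 196 to 249 CPM in sedentary females and at 35.5 to 79.9 and 52.0 to 132 CPM in males (-1.16 ± 0.58, 95% interval -2.49 to 0.18). An antisense gene covers 61.5% of Nppa. The sedentary females stood above all other libraries for both genes. In female sedentary 1, 2 and 3, Nppa was at 222, 196 and 249 CPM and the summed atrial markers at 236, 110 and 37.3 CPM. The part of atrial tissue in the value of Nppa was not tested. Nppb, the brain natriuretic peptide, was at -0.98 ± 0.62.

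Ankrd1, a stretch-responsive protein of the sarcomere, was at 1034, 1183 and 1096 CPM in exercised and 1610, 1300 and 1930 CPM in sedentary females, without overlap. In males it was at 1133, 1763 and 1596 CPM with exercise and 1148, 955 and 1530 CPM without, with overlap (-0.85 ± 0.30). Outside the cardiac load list, the ventricular marker Mybpc3, the cardiac myosin-binding protein C, was at -0.33 ± 0.12 from group means of 4114 to 5116 CPM. Of the 8 ventricular markers 6 lay above 0 (median 0.05). In the sarcomere list 15 of 24 genes lay above 0 (0.03). At an unadjusted p under 0.05 stood 4 of the 24 (16.7%, against 4.72% of all genes), 3 above 0 and 1 below. The median of the cardiac load list depended on male exercised 2, and was -0.001 without it; without male exercised 1 it was -0.34 and without female exercised 2 it was -0.285.

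Acta2, smooth muscle actin, which is also expressed in the fetal heart, was at 165, 97.1 and 117 CPM in exercised and 95.5, 52.2 and 87.7 CPM in sedentary females. In males it was at 50.8, 38.2 and 46.2 CPM with exercise and 64.4, 78.5 and 67.3 CPM without. The groups did not overlap in either sex, in opposite directions. The interaction was 1.32 ± 0.35 (95% interval 0.54 to 2.11), with an adjusted p of 0.931 by edgeR's quasi-likelihood test and 0.0123 by DESeq2. Other contractile genes of smooth muscle, named after their values were seen, were on the same side. Myh11 was at 0.99 ± 0.31 and Cnn1 at 1.68 ± 0.59 from 1.09 to 2.95 CPM. Tagln, at a mean of only 0.659 CPM, was at 0.68 ± 0.54 (95% interval -0.47 to 1.83). The pericyte genes Pdgfrb, Rgs5, Kcnj8, Abcc9, Cspg4 and Vtn were at -0.06, 0.04, -0.09, -0.07, -0.21 and 0.02. Over the 10 markers of smooth muscle and pericytes, the summed level ran from 1038 to 1238 CPM in exercised and 1055 to 1103 CPM in sedentary females and from 1038 to 1198 and 1106 to 1188 CPM in males. Most of that sum came from Rgs5 and Abcc9, with means of 510 and 325 CPM over all libraries. Acta2 and Myh11 had means of 80.0 and 36.7 CPM, so the sum hardly reflects the contractile genes. Whether the amount of vessel wall in a sample had a part in the value of Acta2 was not tested.

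Cytosolic ribosomal protein genes lay on the other side of 0 from fatty acid oxidation. Of 33 genes 31 lay below 0, with a median of -0.15, and 7 were at an unadjusted p under 0.05 (21.2%, all below 0, against 2.42% of all genes). Effects were below 0 in 27 of 33 cases in females (-0.05) and above 0 in 32 of 33 in males (0.12). The sex difference was 0.24 in sedentary and 0.07 in exercised hearts. Rps3, of the small subunit, was at 387, 382 and 347 CPM in exercised and 337, 345 and 325 CPM in sedentary males, without overlap, and at 372 to 402 and 393 to 435 CPM in females, with overlap (-0.22 ± 0.09). Rpl27, of the large subunit, was at -0.26 ± 0.11. The list's median was -0.095 without female sedentary 3. It was -0.27 in the 9 libraries of few atrial transcripts, where female sedentary 3 is the only sedentary female. Ribosomal protein genes have many pseudogene copies and short exons (median 1770 bases), and what part these have was not tested.

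Interferon-stimulated genes were below 0 in 26 of 30 cases (-0.20), against 8003 of all 15705 genes. At an unadjusted p under 0.05 stood 3 of the 30 (10%, all below 0, against 2.42% of all genes). Ifit2 was at -0.59 ± 0.19, Bst2, the virus tether tetherin, at -0.58 ± 0.21 and Irf7, a master regulator of interferon, at -0.53 ± 0.23. Ifit2 was at 17.0 to 19.7 CPM in exercised and 19.6 to 25.5 CPM in sedentary females and at 16.5 to 19.7 against 13.1 to 18 CPM in males, overlapping in both. Endoplasmic reticulum stress genes were below 0 in 18 of 22 cases (-0.22, but -0.09 without male exercised 2 and -0.328 without male exercised 1). At an unadjusted p under 0.05 stood 2 of the 22 (9.09%, all below 0). The chaperones Pdia6 and Sdf2l1 were at -0.29 ± 0.12 and -0.98 ± 0.44. The latter was at 22.6 CPM in male exercised 2 and at most 17.3 CPM elsewhere.

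Immediate early genes, which answer acute stimuli, were above 0 in both sexes. Of 29 genes 28 were above 0 with exercise in females (0.39) and 29 in males (0.59). The interaction was below 0 in 25 (-0.20), against 8003 of all 15705 genes. Only 1 of the 29 stood at an unadjusted p under 0.05 (3.45%, against 4.72% of all genes). Klf2, a flow-responsive factor of endothelium, was at 207, 263 and 189 CPM in exercised and 164, 132 and 106 CPM in sedentary males, without overlap, and at 199 to 247 and 194 to 204 CPM in females (-0.60 ± 0.22). The list turned with 1 library: its median was 0.115 without male exercised 2, -0.051 without male sedentary 1 and -0.416 without male exercised 3.

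Glycolysis and 5 further lists held 0 genes at an unadjusted p under 0.05. Extracellular matrix genes were above 0 in 16 of 36 tested cases (-0.03), and among them Col1a1 was at -0.20 ± 0.16, Col3a1 at 0.15 ± 0.28 and Postn, a protein of activated fibroblasts, at -0.25 ± 0.18. Inflammatory genes were above 0 in 11 of 25 (-0.06), oxidative stress defence in 15 of 29 (0.01) and the core clock in 6 of 19 (-0.12, from -0.279 without female exercised 2 to -0.007 without female sedentary 2, and 0.07 with 1 surrogate variable). Glucocorticoid-responsive genes had the highest median of the 28 lists, 0.30, with 15 of 21 above 0 and wide errors, such as Fkbp5 at 0.82 ± 0.42. That rank depended on single libraries, since the median was 0.088 without female exercised 1, 0.198 without male exercised 1 and 0.533 without female exercised 2. Clock genes were also imprecise, with Dbp at -0.92 ± 1.13, Per2 at -0.54 ± 0.61 and Arntl at 0.70 ± 0.82, and the sources used here do not give the times of day at which hearts were taken.

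**Figure D4:**
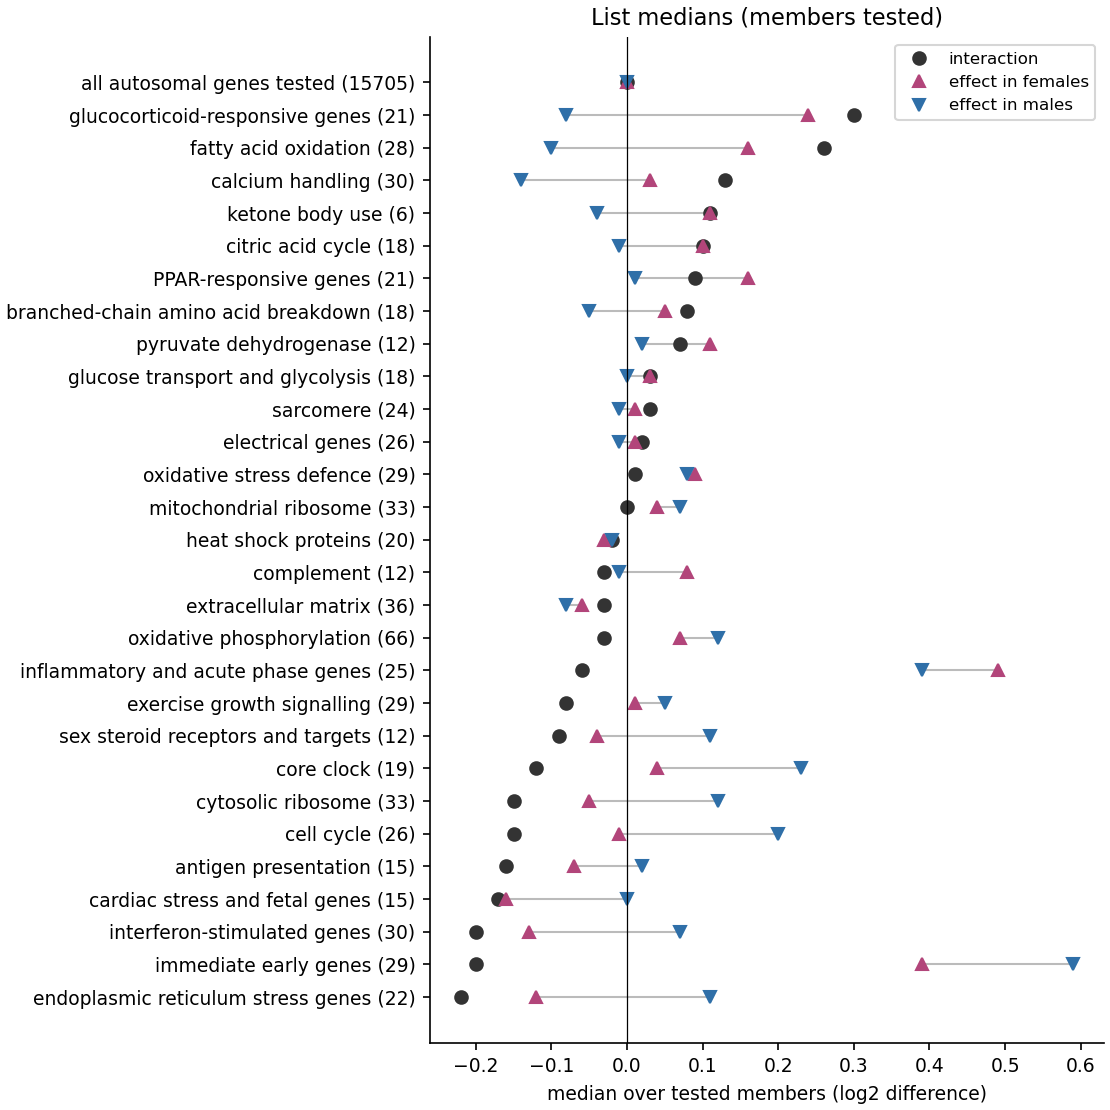
Median over the tested members of each gene list (number in brackets) of the interaction (black points), the exercise effect in females (upward triangles) and that in males (downward triangles), as log2 differences; the top line is all 15705 genes. Fatty acid oxidation and calcium handling lie right of 0 and the cytosolic ribosome left of 0, with the sexes on opposite sides; immediate early and inflammatory genes have both sexes right of 0.

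Over the panel of 26 heart genes, chosen for their roles in load, conduction, matrix, metabolism and the clock, 0 passed the test, and Myh7, Ankrd1, Kcnd2 and Ppargc1a stood at an unadjusted p under 0.05. Acta1, skeletal actin, was at 0.24 ± 0.74 and Cebpb and Cited4, factors linked to exercise growth of the heart, at -0.40 ± 0.71 and -0.18 ± 0.34. Pdk4, the kinase that shuts pyruvate out of oxidation, and Ucp3, a mitochondrial carrier, were at -0.15 ± 0.73 and -0.43 ± 0.86. Fos was at -0.16 ± 0.50 and the heat shock gene Hspa1a at -0.43 ± 0.74. For these 7 genes the 95% intervals reached beyond 0.5 in both directions, as the forest plot of the panel shows, so differences of that size were not detectable for them.

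**Figure D5:**
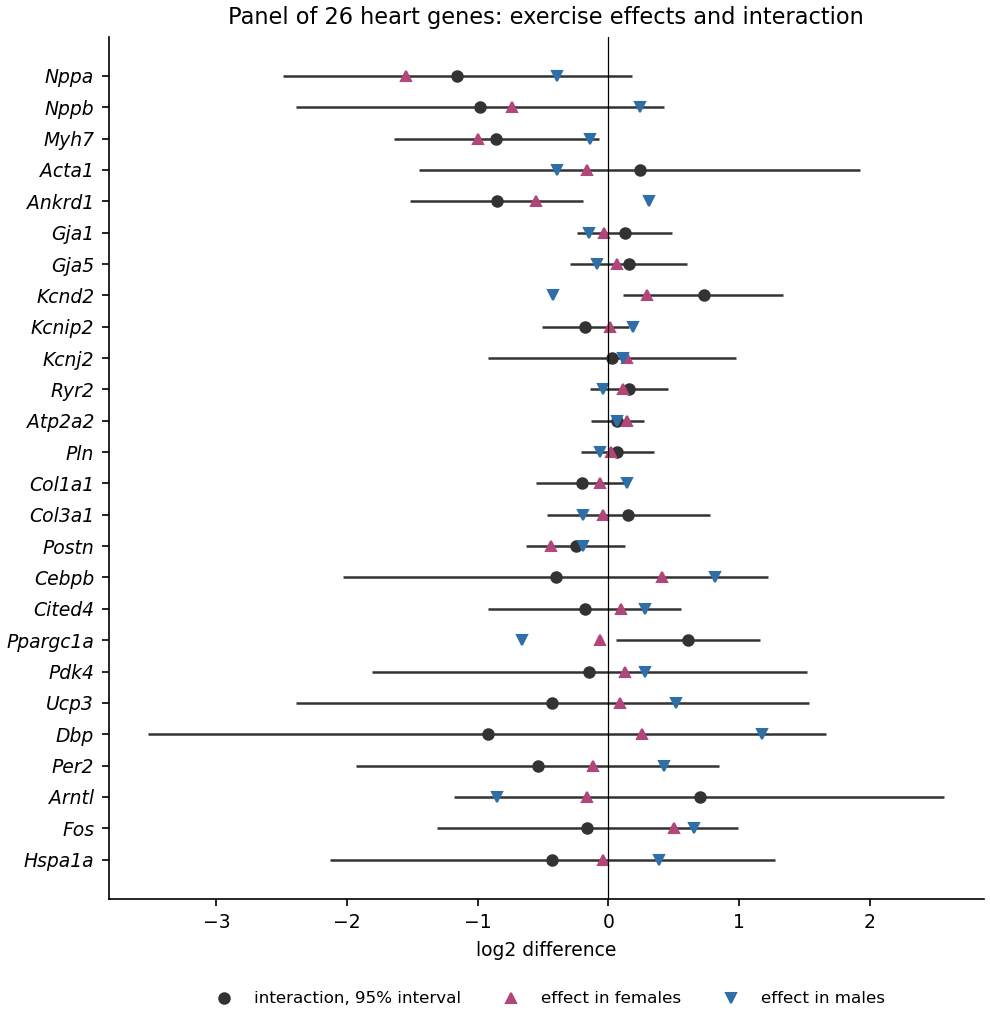
Interaction (black points) with its 95% interval (bars, not adjusted for the number of genes) and the exercise effects in females (upward triangles) and males (downward triangles), as log2 differences, for the 26 panel genes. Intervals that do not reach 0 are those of Myh7, Ankrd1, Kcnd2 and Ppargc1a; the widest belong to Dbp and Ucp3.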

How the data were processed

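RNA of mouse hearts was sequenced in 12 libraries, 3 in each of the 4 groups. The values deposited by the authors are raw read counts, made with Trimmomatic 0.36, STAR 2.5.2b, the genome GRCm38 and featureCounts of Subread 1.5.2, per the submitters' processing notes. Which annotation release and strand option the counting used is not given in the sources used here. Genes that overlap others are therefore uncertain. Of 55401 identifiers, 54349 were found in the GENCODE annotation of GRCm38 with their version, 792 without it and 260 not at all.

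The 37 mitochondrial genes were left out before scaling, since they hold counts in 1 library only. The counts of all nuclear genes that passed edgeR's filterByExpr (16265, of them 15705 autosomal) were scaled by TMM and fitted with edgeR 4.0.16 in R 4.3.3, with 1 mean per group and the robust quasi-likelihood test, which left 8 residual degrees of freedom. The interaction was tested as a contrast of the 4 means, with Benjamini-Hochberg adjustment over all genes fitted and a threshold of 0.05. The SE of a log2 difference was taken as its size divided by the square root of the F statistic of the quasi-likelihood test. Intervals are 95% intervals of single genes built on this SE. CPM were computed from TMM-scaled totals, which ran from 22204349 to 26607844 counts before scaling. The model fit was tested on simulated data. Alternatives used DESeq2 1.42.0, limma 3.58.1 and sva 3.50.0, other scalings and filters, covariates and libraries left out.

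Named are the autosomal protein-coding genes of at least 1 CPM with the 12 smallest p in each direction, as many as 4 members per list, those of smallest p, the panel of 26 genes and members of the fatty acid oxidation list; results of 2 genes are not reported here by name. Named beside the rule, after their values were seen, are C130080G10Rik, Cpxm2, Myh11, Cnn1 and Tagln. The contrast, the gene lists and the panel were chosen with earlier results of these data known. Promoter windows come from RefSeq on GRCm38.p6, where 22 of the 28 fatty acid oxidation genes were matched by symbol.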

Additional observations from a re-analysis of the deposited data

Results flagged for a closer look

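Genes of the mitochondrial genome, which enter no comparison here, held 27.3% of the counts of female sedentary 2, or 8900132 counts, and 0 counts in the other 11 libraries. Groups of 3 libraries are too small for a test of single libraries that stand apart. The difference between the sexes was itself the tested contrast, and it passed the threshold for 0 autosomal genes by edgeR's quasi-likelihood test, with 742 at an unadjusted p under 0.05, 9 called by DESeq2 and 0 by limma's voom.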

How the results depend on the processing

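Over 25 alternatives, 1 of which (an adjusted p of 0.1) bears on calls alone, 2555 of 2616 values of the 109 genes named kept their direction and 903 of 960 list medians moved by less than 1 SD of the list's library medians within groups. The cause of the changes below was not tested. The number of genes called was 9 with DESeq2, and 0 to 1 with each library left out (1 without female exercised 3). Without a filter, which tests more genes, 1146 stood at an unadjusted p under 0.05. With 9 libraries of few atrial transcripts, where fewer libraries separate more easily, 731 genes separated in opposite and 597 in the same directions, and with each library left out 139 to 229 and 145 to 264. Those 9 libraries hold female sedentary 3 as the only sedentary female. In them the list medians were -0.117 for oxidative phosphorylation, -0.274 for the cytosolic ribosome, 0.176 for calcium handling and -0.373 for the cell cycle. With 1 surrogate variable the ribosome was at -0.235 and calcium handling at 0.191. With each library left out, calcium handling ran from 0.094 to 0.159 and immediate early genes from -0.416 to 0.115.

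Among single genes, Cpt1b turned to 0.001 with upper quartile scaling, 0.002 without pseudogenes, 0.013 with the atrial covariate, 0.082 with 1 surrogate variable and 0.304 in the 9 libraries. With the surrogate variable Pln was at -0.01, Dbp at 0.141 and Per2 at 0.007. With limma's voom Kcnj2 was at -0.035, Hspa1a at 0.083 and Cpt1a at -0.058. In the 9 libraries Gja1 was at -0.201, Pln at -0.066, Pdk4 at 0.403, Ucp3 at 0.483, Mlycd at 0.174 and Acaa1a at -0.005. With each library left out the sign changed for 16 genes: Acaa1a (0 to 0.049), Acacb (-0.098 to 0.154), Acta1 (-0.168 to 0.666), Cited4 (-0.435 to 0.08), Col3a1 (-0.098 to 0.374), Cpt1a (-0.108 to 0.177), Cpt1b (-0.112 to 0.079), Fos (-0.417 to 0.151), Gja1 (-0.003 to 0.292), Hspa1a (-0.791 to 0.534), Kcnip2 (-0.291 to 0.003), Kcnj2 (-0.223 to 0.276), Mlycd (-0.102 to 0.094), Pdk4 (-0.483 to 0.314), Pln (-0.022 to 0.156) and Ucp3 (-0.764 to 0.592). No paired analysis was possible because the labels give the groups no shared replicate numbers. With 3 libraries a group and a median SE of 0.2, small differences between the sexes were not detectable for most single genes.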

Other observations

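Cell cycle genes were at low levels and lay below 0 in 21 of 26 cases, with a median interaction of -0.15 (females -0.01, males 0.20) and 1 gene at an unadjusted p under 0.05 (3.85%, against 4.72% of all genes). That median was -0.087 without female sedentary 3, -0.26 without female exercised 3 and -0.288 without female sedentary 1. Endothelial markers were below 0 in 12 of 14 cases (-0.12), with 1 at an unadjusted p under 0.05 (7.14%). All 14 exercise effects in males were above 0 (0.10). Macrophage markers were above 0 with exercise in 14 of 14 cases in females (0.27) and 13 of 14 in males (0.22), and their interaction was at 0.01.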
